A study of Rattus norvegicus with 40 samples.

Results

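The vascular endothelial growth factor (VEGF) and angiopoietin system was followed in rat liver during diethylnitrosamine (DEN) carcinogenesis through 10 of the 17337 genes in the count tables. They were chosen by symbol: the ligands Vegfa, Vegfb and Vegfc, the VEGF receptors Flt1, Kdr and Flt4, the co-receptor Nrp1, the angiopoietins Angpt1 and Angpt2, and their receptor Tek. All 10 were found, and all 10 passed the filter on low counts in every comparison.

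VEGF ligands are secreted proteins that bind receptor tyrosine kinases on endothelial cells and drive the growth, survival and permeability of blood and lymphatic vessels. VEGF-A acts mainly through KDR (VEGFR2), FLT1 (VEGFR1) binds VEGF-A and VEGF-B tightly and can act as a decoy, VEGF-C acts through FLT4 (VEGFR3), and NRP1 is a co-receptor for VEGF-A and for class 3 semaphorins. Angiopoietin 1 activates the endothelial receptor TEK (TIE2) and stabilises vessels, whereas angiopoietin 2 competes for the same receptor and is linked to vessel remodelling. In the liver, hepatocytes are a known source of VEGF-A, and the receptors are found on the endothelium of sinusoids and of larger vessels.

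Whole-tissue RNA from male Fischer 344 rats was sequenced in 40 libraries from 24 rats. DEN, a carcinogen activated in hepatocytes, was injected intraperitoneally every week at 50 mg/kg from 7 weeks of age. Livers were taken after 8 weeks of injections, after 14 weeks, and at 20 weeks, when 14 weeks of injections had been followed by 6 weeks without DEN. Each time point had 4 DEN-treated rats and 4 age-matched rats that received no DEN. At 8 weeks the DEN-treated liver gave 1 library of non-tumoral (NT) tissue per rat. At 14 and 20 weeks each treated rat gave 1 NT library and 2 nodule libraries, and the counts of the 2 nodules were added so that each rat contributed 1 value per tissue. The comparisons of NT tissue and of nodules with no DEN liver share the same no DEN rats, so their values are set side by side and are not independent. Rats carry the letter F or H, every no DEN rat is an H rat, and the labels do not say what the letters stand for. The F rats were F09 and F10 at 8 weeks, F06 at 14 weeks and F03 at 20 weeks.

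The sequences below are the 250 bases before the annotated start of 4 of the genes, read on the strand of the gene from RefSeq, build GRCr8. They show Nrp1 and Flt4, the receptors with the most differences from no DEN liver that passed the test, beside Vegfa and Vegfc, ligands with none. Capitals mark GGGCGG, the box bound by SP1-type factors, and GCGTG, each on either strand, so that CCGCCC in capitals is a match on the opposite strand, as is CACGC. The hypoxia response element has GCGTG or ACGTG at its core. Nrp1 at chr19:73256307-73256556 (plus strand), Flt4 at chr10:34414584-34414833 (plus strand), Vegfa at chr9:22452604-22452853 (plus strand, the first of its 2 annotated starts) and Vegfc at chr16:44560888-44561137 (minus strand) read:
Nrp1: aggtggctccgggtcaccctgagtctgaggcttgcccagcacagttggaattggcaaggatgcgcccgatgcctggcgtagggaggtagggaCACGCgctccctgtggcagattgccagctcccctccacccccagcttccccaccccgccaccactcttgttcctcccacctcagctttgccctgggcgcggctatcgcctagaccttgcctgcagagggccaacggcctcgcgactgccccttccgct
Flt4: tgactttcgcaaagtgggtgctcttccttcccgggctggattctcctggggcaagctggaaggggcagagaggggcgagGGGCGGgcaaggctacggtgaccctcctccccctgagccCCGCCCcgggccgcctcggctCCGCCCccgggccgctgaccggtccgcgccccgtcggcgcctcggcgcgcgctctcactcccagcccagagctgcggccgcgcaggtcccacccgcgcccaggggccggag
Vegfa: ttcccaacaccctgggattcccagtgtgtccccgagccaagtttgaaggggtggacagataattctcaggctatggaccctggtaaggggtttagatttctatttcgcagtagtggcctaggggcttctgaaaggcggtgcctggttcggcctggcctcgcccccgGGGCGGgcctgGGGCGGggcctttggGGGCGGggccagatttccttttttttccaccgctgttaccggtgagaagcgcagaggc
Vegfc: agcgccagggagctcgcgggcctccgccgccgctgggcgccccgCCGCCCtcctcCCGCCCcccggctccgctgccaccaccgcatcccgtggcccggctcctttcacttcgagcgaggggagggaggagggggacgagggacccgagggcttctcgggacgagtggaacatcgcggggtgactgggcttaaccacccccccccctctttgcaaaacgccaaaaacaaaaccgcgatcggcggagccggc

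Flt4 and Vegfa each held 3 copies of GGGCGG and Vegfc held 2, whereas Nrp1 held none and 1 GCGTG. Sequences were found for 7 of the 10 genes, and Angpt1, Angpt2 and Tek had no entry. Of these 7, 6 held GGGCGG, 4 held GCGTG (Nrp1, Vegfb, Kdr and Flt1) and none held ACGTG or CCGGAAG (an ETS-type motif) on either strand. Over all 33469 rat promoters of the same length, 30.5% held GGGCGG, 25.9% GCGTG, 16.6% ACGTG and 7.27% CCGGAAG. The 2 hypoxia motifs share their last 4 letters. The 4 windows shown had a GC content of 66.4% (Nrp1), 76.0% (Flt4), 60.4% (Vegfa) and 72.4% (Vegfc), against a median of 51.2% over all promoters. The matches describe these windows only.

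Depth ranged from 20528515 to 160622633 counted read pairs per library, with a median of 30477421. Levels are given as CPM, the counts relative to library size, scaled by the trimmed mean of M values (TMM), which sets libraries to a common composition, and are compared within a gene only, since gene lengths were not used. Summed over 8 hepatocyte genes such as Alb and Apob, the level was 284057 to 331777 CPM in no DEN liver and 161377 to 295597 CPM in DEN-treated tissue, which accounts for a large share of every library. Summed over the general endothelial markers, such as Eng, Pecam1 and Cdh5, it was 89.0 to 158 CPM in no DEN liver, 162 to 196 in NT tissue and 172 to 216 in nodules, without overlap between untreated and treated liver. Robo4 was at 0 in all 40 libraries and the other general markers found were detected in every library. In bulk tissue, fewer cells of a type and less RNA per cell cannot be told apart. Both nodules of rat F06 and nodule 1 of rat F03 stood apart from the other nodules in several of the genes below, and results that rest on them are given with and without them. A gene was called changed when its log2 fold change was 0.5 or more in either direction and its p, adjusted by Benjamini-Hochberg over all genes tested with edgeR's quasi-likelihood test, was 0.05 or less.

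In NT liver at 8 weeks, 2 of the 10 genes passed this rule, Nrp1 upward and Vegfb downward, where 21.7% of all genes tested did (16.5% upward and 5.21% downward). At 14 weeks of DEN, 5 of the 10 passed in NT liver (Nrp1, Flt4, Flt1 and Angpt1 upward, Vegfb downward), against 32.6% of all genes (22.8% upward and 9.85% downward). In NT liver at 20 weeks, 3 of the 10 passed (Flt4, Angpt2 and Nrp1, all upward), against 18.1% (14.3% upward and 3.82% downward). Nodules at 14 weeks differed from no DEN liver in 4 of the 10 (Nrp1, Flt4 and Flt1 upward, Vegfb downward), against 39.1% (23.9% upward and 15.2% downward). Nodules at 20 weeks differed in 5 of the 10 (Flt4, Nrp1, Angpt2 and Flt1 upward, Vegfb downward), against 38.8% (23.6% upward and 15.2% downward). Angpt2, counted at 20 weeks in both tissues, was tested only because the treated rats counted towards the filter on low counts. At a stricter rule, with a log2 fold change of 1 or more in either direction and an adjusted p of 0.01 or less, 0, 2 and 1 of the 10 passed in NT liver at 8, 14 and 20 weeks, against 7.91%, 15.2% and 5.22% of all genes. In nodules at 14 and 20 weeks 0 and 3 did, against 18.7% and 17.4%. With 10 genes, these counts are too small to set the members apart from all genes in any of the 5 comparisons. Under the first rule, those at 8 weeks and in nodules at 14 weeks lay closest to the share over all genes. The median log2 fold change of the 10 genes was 0.18, 0.48 and 0.67 in NT liver at 8, 14 and 20 weeks and 0.34 and 0.61 in nodules at 14 and 20 weeks, while that of all genes lay between -0.01 and 0.02.

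**Figure D1:**
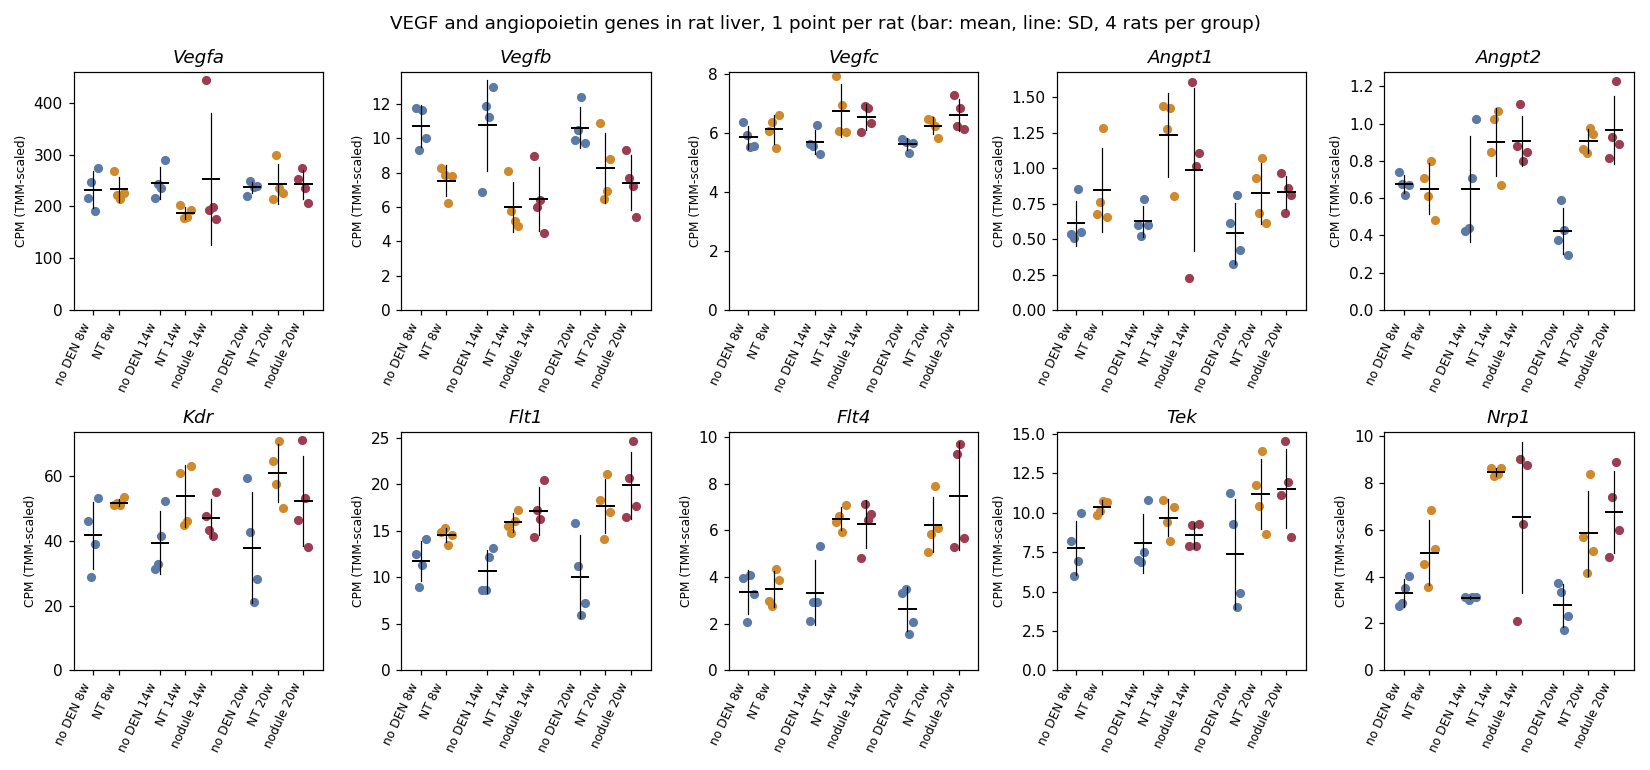
Levels of the 10 genes in the 8 groups, in TMM-scaled CPM on an axis that starts at 0, with 1 point per rat, a bar at the mean and a line for the SD of 4 rats. Nrp1 and Flt4 lie higher in NT tissue and nodules at 14 and 20 weeks than in most no DEN rats, except Nrp1 in the nodules of F06, at 2.08 CPM. Vegfb lies lower in most DEN-treated rats, and Vegfa stays between 175 and 299 CPM in all rats except F06, whose nodules reach 444 CPM.

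Vegfa, the main angiogenic ligand, was not called changed in any comparison with no DEN liver. No DEN rats had 192 to 274 CPM at 8 weeks, 217 to 290 at 14 weeks and 221 to 248 at 20 weeks. NT liver had 215 to 268 CPM at 8 weeks and 214 to 299 at 20 weeks, within or around these ranges. The log2 differences were -0.00 ± 0.12 (SE, 95% confidence interval -0.26 to 0.25) at 8 weeks and 0.06 ± 0.10 (-0.17 to 0.29) at 20 weeks. Both intervals lie within 0.5 of 0 on the log2 scale.

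At 14 weeks, NT liver had lower Vegfa values: 202 CPM in F06, 178 in H21, 179 in H22 and 193 in H23, against 217, 243, 235 and 290 CPM in no DEN rats H09, H10, H11 and H12. The groups did not overlap, and the difference was -0.36 ± 0.10 (95% interval -0.57 to -0.15, adjusted p = 0.00848), which lies under the fold limit of the rule. In the nodules at 14 weeks, Vegfa was at 444 CPM in F06 and at 194, 199 and 175 CPM in H21, H22 and H23. One rat thus lay above and 3 lay below all no DEN rats. The log2 difference was 0.02 ± 0.29 (-0.63 to 0.67) with all 4 rats. Without F06, it was -0.37 (adjusted p = 0.00528), again under the fold limit. At 20 weeks the nodules had 207 to 274 CPM, and the difference was 0.02 ± 0.11 (-0.23 to 0.27).

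Vegfb encodes a ligand of FLT1 that is linked to lipid uptake and vessel survival more than to sprouting. Of the 10 genes, Vegfb alone fell past the rule in these comparisons, and it did so in NT liver at 8 and 14 weeks and in nodules at 14 and 20 weeks. In no DEN liver, Vegfb was at 11.8, 9.30, 11.7 and 10.03 CPM at 8 weeks (H05 to H08), at 6.89, 11.9, 11.2 and 12.98 CPM at 14 weeks (H09 to H12) and at 9.90, 10.5, 12.4 and 9.70 CPM at 20 weeks (H13 to H16). Rat H09 was the single low value of the 12.

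The NT values of Vegfb were 8.24, 7.88, 6.21 and 7.80 CPM at 8 weeks (F09, F10, H17 and H18), all below the no DEN rats of that age. They were 8.11, 5.77, 5.18 and 4.90 CPM at 14 weeks (F06, H21, H22 and H23), where F06 lay above no DEN rat H09. At 20 weeks they were 10.9, 6.46, 6.90 and 8.82 CPM (F03, H25, H26 and H28), and F03 lay within the no DEN range. The log2 fold change was -0.51 ± 0.12 (adjusted p = 0.00965) at 8 weeks, -0.81 ± 0.22 (adjusted p = 0.0105) at 14 weeks and -0.35 ± 0.17 (adjusted p = 0.149) at 20 weeks. At 8 weeks the value was under the fold limit without any 1 of H05, H07 or H17, at -0.43 to -0.47, and at 20 weeks Vegfb passed the rule without F03 (-0.51, adjusted p = 0.0343). The NT difference at 20 weeks did not differ detectably from that at 14 weeks (difference of the log2 fold changes 0.47, 95% interval -0.15 to 1.08, adjusted p = 0.441).

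Vegfb in nodules was 8.96, 6.02, 6.41 and 4.46 CPM at 14 weeks (F06, H21, H22 and H23) and 9.29, 7.66, 7.24 and 5.43 CPM at 20 weeks (F03, H25, H26 and H28). At 20 weeks all 4 rats lay below all no DEN rats of that age. This gave a log2 fold change of -0.75 ± 0.25 (adjusted p = 0.0310) at 14 weeks and -0.54 ± 0.17 (adjusted p = 0.0206) at 20 weeks. In nodules at 14 weeks the call was lost without any 1 of H10, H11, H12, H21, H22 or H23, with log2 fold changes of -0.60 to -0.74 and adjusted p of 0.0671 to 0.0827. At 20 weeks it was lost without H15 (-0.46, adjusted p = 0.0611), without H26 (-0.52, adjusted p = 0.0503), without H28 (-0.40, under the fold limit) and with nodule 1 of each rat alone (-0.40, adjusted p = 0.120).

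Vegfc, the ligand of FLT4 that drives lymphatic growth, was called in no comparison. Its group means were 5.62 to 5.85 CPM in no DEN liver, 6.12 to 6.76 CPM in NT liver and 6.54 and 6.62 CPM in nodules. At 20 weeks the NT rats (5.84 to 6.46 CPM) and the nodules (6.13 to 7.29 CPM) lay just above the no DEN rats (5.33 to 5.80 CPM) without overlap. These differences were small, with log2 values of 0.17 ± 0.11 (adjusted p = 0.264) and 0.22 ± 0.11 (adjusted p = 0.129).

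**Figure D2:**
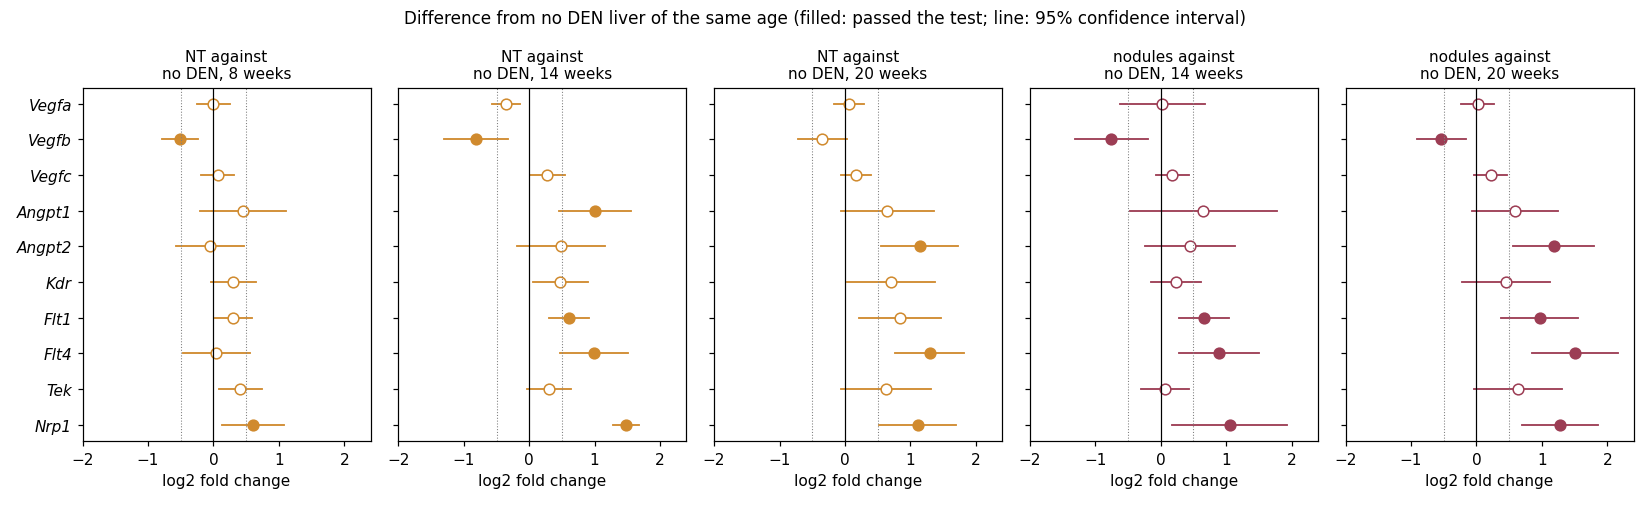
Log2 fold changes of the 10 genes against no DEN liver of the same age in NT tissue at 8, 14 and 20 weeks and in nodules at 14 and 20 weeks, 1 panel per comparison, with 95% confidence intervals as lines and filled points for genes that passed the rule. Nrp1 is filled in all 5 panels and reaches 1.48 in NT tissue at 14 weeks, Flt4 is filled in 4, Vegfb lies left of 0 in all 5, and Vegfa and Vegfc are filled in none.

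Nrp1, the co-receptor, rose in all 5 comparisons with no DEN liver. Its values in no DEN liver were 2.76, 2.86, 3.52 and 4.03 CPM at 8 weeks (H05 to H08), with 3.00 to 3.15 CPM at 14 weeks and 1.71 to 3.73 CPM at 20 weeks. NT liver had 4.52, 3.56, 6.85 and 5.15 CPM at 8 weeks (F09, F10, H17 and H18), 8.61, 8.28, 8.38 and 8.62 CPM at 14 weeks (F06, H21, H22 and H23) and 5.69, 4.17, 8.39 and 5.09 CPM at 20 weeks (F03, H25, H26 and H28). At 14 and 20 weeks every NT rat lay above every no DEN rat, whereas at 8 weeks F10 lay within the no DEN range.

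The log2 fold change of Nrp1 in NT liver was 0.60 ± 0.21 (adjusted p = 0.0492) at 8 weeks, 1.48 ± 0.09 (95% interval 1.28 to 1.68, 2.79-fold, adjusted p = 2.44e-06) at 14 weeks and 1.11 ± 0.27 (adjusted p = 0.0127) at 20 weeks. The rise at 14 weeks was larger than that at 8 weeks by 0.88 ± 0.23 (95% interval 0.38 to 1.37, adjusted p = 0.0285 in the test of the interaction). Nrp1 was the single one of the 10 genes to pass that test, which 8.96% of all genes passed. Between 14 and 20 weeks, none of the 10 passed the same test in NT liver or in nodules, where 0.738% and 0.0862% of all genes did (DESeq2 called 391 and 29 genes, none of them among the 10). The difference for Nrp1 between 8 and 14 weeks was 0.60 (adjusted p = 0.0882) without the F rats, and it also lost the call without any 1 of F09, H07, H08, H10, H11, H21, H22 or H23. The call at 8 weeks rested on few rats too, since it was lost without any 1 of F09, H05, H06, H07, H17 or H18 (log2 fold change 0.41 to 0.65, adjusted p of 0.0651 to 0.123). From 14 to 20 weeks, the difference in effect was -0.36 (95% interval -0.98 to 0.26, adjusted p = 0.560).

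Nodules at 14 weeks had 2.08, 9.03, 6.25 and 8.78 CPM of Nrp1 (F06, H21, H22 and H23), and nodules at 20 weeks had 4.85, 7.37, 8.88 and 5.97 CPM (F03, H25, H26 and H28). The nodules of F06 lay below every no DEN rat of their age, and those of the other 7 rats lay above every no DEN rat of their age. The log2 fold change was 1.05 ± 0.39 (adjusted p = 0.0469) at 14 weeks and 1.27 ± 0.26 (2.41-fold, adjusted p = 0.00276) at 20 weeks. Without F06 the value at 14 weeks was 1.38 (adjusted p = 5.54e-06). The call at 14 weeks was lost without any 1 of H09, H10, H11, H12, H21, H22 or H23 (adjusted p of 0.0749 to 0.115). With nodule 1 of each rat alone, both calls were lost, at 1.18 (adjusted p = 0.0841) at 14 weeks and 0.90 (adjusted p = 0.208) at 20 weeks.

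Flt4, which encodes the VEGF-C receptor of lymphatic and, in the liver, also sinusoidal endothelium, rose in NT liver and nodules at 14 and 20 weeks but not in NT liver at 8 weeks. No DEN rats had 3.95, 2.06, 4.10 and 3.28 CPM at 8 weeks (H05 to H08), 2.12, 2.92, 2.91 and 5.33 CPM at 14 weeks (H09 to H12) and 3.30, 3.50, 1.57 and 2.07 CPM at 20 weeks (H13 to H16). NT rats had 2.74 to 4.35 CPM at 8 weeks, then 6.36, 6.59, 5.92 and 7.09 CPM at 14 weeks (F06, H21, H22 and H23) and 5.09, 5.86, 7.88 and 6.09 CPM at 20 weeks (F03, H25, H26 and H28). The groups overlapped at 8 weeks and were apart at 14 and 20 weeks, although no DEN rat H12 came near the NT rats.

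Flt4 had an NT log2 fold change of 0.05 ± 0.23 (adjusted p = 0.897) at 8 weeks, 0.99 ± 0.24 (adjusted p = 0.00499) at 14 weeks and 1.29 ± 0.24 (adjusted p = 0.00364) at 20 weeks. The step between 8 and 14 weeks was 0.95 (95% interval 0.21 to 1.68, adjusted p = 0.0978), short of the threshold, and passed it without H12. Nodules had 4.80, 7.12, 6.42 and 6.71 CPM at 14 weeks (F06, H21, H22 and H23) and 5.29, 9.26, 9.68 and 5.66 CPM at 20 weeks (F03, H25, H26 and H28). These gave log2 fold changes of 0.89 ± 0.27 (adjusted p = 0.0218) and 1.51 ± 0.29 (2.84-fold, adjusted p = 0.0021). At 14 weeks the nodules of F06 lay below no DEN rat H12, and the call was lost without any 1 of H09, H10, H11 or H21 (adjusted p of 0.0531 to 0.0644) and with nodule 1 of each rat alone (0.88, adjusted p = 0.0511).

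Flt1, the receptor and decoy for VEGF-A and VEGF-B, rose in NT liver at 14 weeks and in nodules at both times. No DEN means were 11.7 ± 2.19, 10.6 ± 2.34 and 10.1 ± 4.45 CPM at 8, 14 and 20 weeks (SD, n = 4). NT means were 14.5 ± 0.755, 15.9 ± 1.04 and 17.6 ± 2.92 CPM, and nodule means were 17.1 ± 2.56 and 19.9 ± 3.63 CPM. The NT log2 fold change was 0.30 ± 0.13 (adjusted p = 0.0936) at 8 weeks, 0.61 ± 0.14 (adjusted p = 0.00352) at 14 weeks and 0.84 ± 0.28 (adjusted p = 0.0521) at 20 weeks.

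At 20 weeks the no DEN rats spread from 5.95 CPM (H15) to 15.8 CPM (H13), and Flt1 passed the rule in NT liver without H13 or without H25. The nodules gave 0.66 ± 0.17 (adjusted p = 0.0105) at 14 weeks and 0.97 ± 0.27 (adjusted p = 0.0122) at 20 weeks, and in both cases every nodule value lay above every no DEN value of that age. With nodule 1 of each rat alone, the call at 20 weeks was lost (0.83, adjusted p = 0.0524).

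Kdr, the main signalling receptor for VEGF-A, was not called in any comparison, although all 5 differences were above 0. Its mean was 41.8 ± 10.4, 39.5 ± 9.67 and 37.9 ± 17.03 CPM in no DEN liver at 8, 14 and 20 weeks (SD, n = 4), against 51.8 ± 1.14, 53.8 ± 9.61 and 60.9 ± 8.93 CPM in NT liver and 46.9 ± 6.01 and 52.3 ± 14.0 CPM in nodules. The log2 differences in NT liver were 0.30 ± 0.15 (adjusted p = 0.149), 0.48 ± 0.18 (adjusted p = 0.0519) and 0.70 ± 0.29 (adjusted p = 0.111). Those in nodules were 0.23 ± 0.17 (adjusted p = 0.289) and 0.45 ± 0.30 (adjusted p = 0.234). Kdr spread most among the no DEN rats of 20 weeks, with 59.6 CPM in H13 and 20.99 CPM in H15, and passed the rule at that age without H13 in both tissues, and in NT liver at 14 weeks without H12 or without H21.

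Tek, the angiopoietin receptor, was not called either. Its mean was 7.37 to 8.06 CPM in the no DEN groups, 9.70 to 11.2 CPM in NT liver and 8.58 and 11.5 CPM in nodules at 14 and 20 weeks. The log2 differences were 0.41 ± 0.15 (adjusted p = 0.0528), 0.30 ± 0.15 (adjusted p = 0.124) and 0.63 ± 0.31 (adjusted p = 0.154) in NT liver, and 0.07 ± 0.16 (95% interval -0.30 to 0.44) and 0.64 ± 0.30 (adjusted p = 0.103) in nodules. As for Kdr, no DEN rat H13 held the highest Tek value of its group, 11.3 CPM, and Tek passed the rule in both tissues at 20 weeks without it. Tek passed at 8 weeks without H08.

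The angiopoietins were low, with 6 to 180 counts per rat and tissue for Angpt1 and 7 to 164 for Angpt2, so counting error weighs more on them than on the other 8 genes. Angpt1, the TEK agonist made mainly by perivascular cells, rose in NT liver at 14 weeks only. There it was at 1.44, 1.28, 1.42 and 0.803 CPM (F06, H21, H22 and H23) against 0.601, 0.520, 0.781 and 0.596 CPM in no DEN rats H09 to H12, without overlap. This was a log2 fold change of 1.00 ± 0.25 (adjusted p = 0.00604). It was 0.45 ± 0.30 (adjusted p = 0.266) at 8 weeks and 0.65 ± 0.32 (adjusted p = 0.158) at 20 weeks, and neither step between the times passed its test (adjusted p = 0.388 and 0.693). In nodules Angpt1 gave 0.65 ± 0.50 (adjusted p = 0.304) at 14 weeks, where F06 had 0.224 CPM and the other 3 rats 1.01 to 1.61 CPM, and 0.59 ± 0.29 (adjusted p = 0.116) at 20 weeks. Without F06, Angpt1 passed the rule in nodules at 14 weeks.

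Angpt2, the competing ligand that endothelial cells store and release, lay higher than in no DEN liver at 20 weeks in both tissues, at low counts. In no DEN liver at 20 weeks it was at 0.377, 0.592, 0.428 and 0.295 CPM (H13 to H16). It was at 0.864, 0.845, 0.973 and 0.946 CPM in NT liver and at 0.815, 0.927, 1.23 and 0.888 CPM in nodules (F03, H25, H26 and H28). All 4 treated rats lay above all 4 untreated rats in both tissues. The log2 fold change was 1.14 ± 0.27 (adjusted p = 0.0103) in NT liver and 1.18 ± 0.28 (adjusted p = 0.00559) in nodules. In both comparisons 3 of the 4 no DEN rats reached the minimum of the filter on low counts. Angpt2 was thus tested only because the treated rats counted towards it. It was also called without the filter, from the same 7 to 11 counts per no DEN rat, so this is no separate evidence.

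At the earlier times Angpt2 was not called, with -0.06 ± 0.24 (adjusted p = 0.879) in NT liver at 8 weeks, 0.48 ± 0.31 (adjusted p = 0.205) in NT liver at 14 weeks and 0.45 ± 0.31 (adjusted p = 0.247) in nodules at 14 weeks. Without no DEN rat H12, Angpt2 passed the rule in NT liver at 14 weeks (0.80, adjusted p = 0.0499). The no DEN mean itself was 0.423 ± 0.125 CPM at 20 weeks and 0.650 ± 0.283 CPM at 14 weeks, a log2 difference of -0.65 ± 0.37 (95% interval -1.45 to 0.15, adjusted p = 0.837). The effect at 20 weeks was not shown to differ from that at 14 weeks, in NT liver (difference 0.66, 95% interval -0.20 to 1.53, adjusted p = 0.431) or in nodules (0.72, -0.16 to 1.60).

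The log2 ratio of Angpt2 to Angpt1 in each rat, with 0.1 CPM added to both, addressed the balance of the 2 ligands. Its mean in no DEN liver was 0.15, -0.01 and -0.26 at 8, 14 and 20 weeks. In NT liver it was -0.30, -0.40 and 0.15, and in nodules 0.11 at 14 weeks and 0.19 at 20 weeks. NT liver thus had the lower mean at 8 and 14 weeks and the higher mean at 20 weeks, but the groups overlapped each time.

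None of 7 comparisons of this ratio passed an exact two-sided permutation test with 4 rats against 4, for which the smallest possible p is 0.0286. In the 2 comparisons of nodules with NT liver this test ignored that both came from the same rats, and with signs flipped within rats they gave 0.51 and 0.037 (exact p = 0.875 at 14 and at 20 weeks). The differences from no DEN liver were -0.45 (exact p = 0.114), -0.39 (exact p = 0.2) and 0.42 (exact p = 0.286) in NT liver, and 0.12 (exact p = 0.943) and 0.45 (exact p = 0.286) in nodules. Adjusted over the 7, all p-values were at least 0.5. The nodules of F06 had a ratio of 1.59, with the other nodules of 14 weeks at -0.51 to -0.31, and without F06 the difference of the nodules from no DEN liver at 14 weeks was -0.38. The difference in NT liver at 14 weeks was -0.53 without H09, and that at 20 weeks was 0.74 without H14. Both then reached an unadjusted exact p of 0.0286, the smallest that 3 rats against 4 allow. Without H07 NT liver at 8 weeks gave -0.63, and without H14 the nodules at 20 weeks gave 0.78, also without overlap between the groups (unadjusted exact p = 0.0571 for each).

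**Figure D3:**
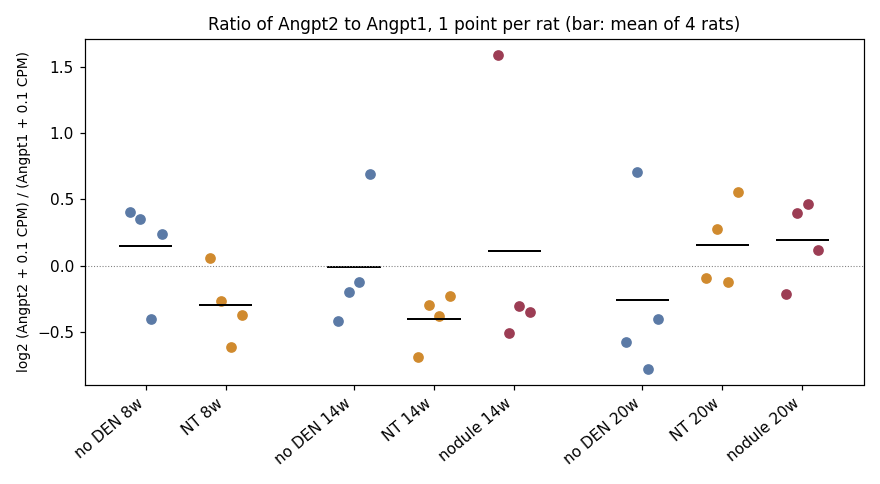
Log2 ratio of Angpt2 to Angpt1 (0.1 CPM added to both) in the 8 groups, with 1 point per rat and a bar at the mean of 4 rats. Means lie between -0.40 (NT at 14 weeks) and 0.19 (nodules at 20 weeks), groups overlap, and the nodules of F06 stand alone at 1.59.

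None of the 10 genes changed between no DEN liver of different ages, and no gene of the 10486 (14 against 8 weeks) and 10432 (20 against 14 weeks) tested did with edgeR. At an unadjusted p under 0.05 there were 1038 and 670 genes and none of the 10, and DESeq2 called 20 and 19 genes and none of the 10. Vegfa differed by 0.07 (95% interval -0.19 to 0.34) and -0.05 (-0.24 to 0.13) on the log2 scale, and Nrp1 by -0.09 (-0.42 to 0.23) and -0.17 (-0.61 to 0.28). The other 8 genes lay between -0.15 (Flt1) and 0.048 (Tek) from 8 to 14 weeks. From 14 to 20 weeks Angpt2 was at -0.65, Flt4 at -0.36, Angpt1 at -0.20 and Tek at -0.14, and the rest at -0.084 to -0.015.

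Nodules were also compared with the NT liver of the same rats. No gene passed the rule with edgeR at 14 or 20 weeks (0% of 11466 and 11546 genes), and in that fit, which had no replicate block, none of the 10 had an unadjusted p under 0.05, where 1348 and 2767 genes of all did. DESeq2 called 24 and 904 genes, and the fit with the rat as a replicate block, possible because both tissues came from the same rats, called 0 and 1693 genes (0% and 14.7%), none of them among the 10. At 14 weeks Vegfa differed by 0.41 (95% interval -0.24 to 1.06), Nrp1 by -0.40 (-1.25 to 0.45) and Angpt1 by -0.33 (-1.44 to 0.77). Without F06 these differences were 0.041, -0.078 and 0.092. Vegfb was at 0.084, Vegfc at -0.071, Flt1 at 0.081, Flt4 at -0.075, Angpt2 at -0.012 and Tek at -0.20.

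At 20 weeks the differences were -0.03 (-0.35 to 0.29) for Vegfa, 0.17 (-0.37 to 0.72) for Nrp1, -0.04 (-0.57 to 0.49) for Angpt1 and 0.23 (-0.29 to 0.74) for Flt4. Vegfb was at -0.18, Vegfc at 0.057, Flt1 at 0.14, Angpt2 at 0.054 and Tek at 0.014. Kdr was below 0 at both times, at -0.22 (-0.56 to 0.11) and -0.24 (-0.67 to 0.18). With the replicate block Kdr gave -0.21 (unadjusted p = 0.0281, adjusted p = 0.199) at 14 weeks and -0.27 (adjusted p = 0.140) at 20 weeks.

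At 14 weeks the nodules had less Kdr than the NT liver of the same rat in all 4 rats, with 47.8 against 61.0 CPM in F06, 43.2 against 45.0 in H21, 41.6 against 46.1 in H22 and 55.0 against 63.3 in H23. Tek was also lower in the nodules of all 4, with 7.86 against 10.8 CPM in F06, 9.21 against 9.43 in H21, 7.92 against 8.19 in H22 and 9.31 against 10.4 in H23 (-0.20 with the replicate block, adjusted p = 0.306). At 20 weeks both genes were lower in the nodules of 3 of 4 rats. How many of all genes were lower in the nodules of all 4 rats was not counted, so these values are a description only.

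At 14 weeks single nodules differed most in Angpt1, Nrp1 and Vegfa, and at 20 weeks in Nrp1, Angpt1 and Flt4. Single-nodule levels were scaled over all 40 libraries and so differ slightly from the values per rat. Over the 8 nodules of each time, the highest Nrp1 level was 7.69 times the lowest at 14 weeks and 12.1 times at 20 weeks. For Angpt1 these ratios were 13.8 and 5.64, and for Vegfa 3.72 and 1.95. They were 1.93 and 3.44 for Flt4, 2.26 and 2.13 for Vegfb, 1.96 and 1.68 for Angpt2, 1.41 and 1.94 for Tek, 1.67 and 1.90 for Kdr, 1.73 and 1.996 for Flt1 and 1.46 and 1.40 for Vegfc.

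Nrp1 was at 1.36 and 2.82 CPM in nodules 1 and 2 of F06 and at 0.802 and 7.96 CPM in those of F03, whereas the other 12 nodules lay between 5.04 and 10.5 CPM. Vegfa was at 592 and 347 CPM in the nodules of F06, against 159 to 352 CPM in the other nodules of both times. Angpt1 was at 0.156 and 0.295 CPM in the nodules of F06 (4 and 9 counts) and at 0.267 CPM in nodule 1 of F03 (7 counts). Nodule 1 of F06 thus combined the highest Vegfa with low Nrp1 and Angpt1, and nodule 1 of F03 shared the low Nrp1 and Angpt1. These libraries also stood apart in their reads. Pairs that met no gene made up 34.5% and 28.2% of nodules 1 and 2 of F06, the highest of the 40 libraries, with 21.5% to 26.3% in the rest, and nodule 1 of F06 had the fewest counted pairs, 20528515. Nodule 1 of F03 had the highest share of pairs aligned to more than 1 place, 16.3%, with 7.96% to 13.2% in the other libraries. The part of these differences in the levels was not tested.

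Flt4 was also lowest in these libraries, at 3.85 CPM in nodule 1 of F06 and 3.25 CPM in nodule 1 of F03. The endothelial marker Cdh5, which encodes VE-cadherin, was at 3.31 and 4.81 CPM there and at 11.7 to 22.4 CPM in the other nodules. Pecam1, another endothelial adhesion molecule, was at 23.6 and 22.2 CPM, within the nodule range of 14.1 to 27.4, and the summed endothelial markers were at 223 and 181 CPM, within the range of 170 to 230. How far the endothelial make-up of these 2 nodules bears on their receptor levels was not tested. With both nodules left out, 4 genes passed at 14 weeks and 5 at 20 weeks, as with them. Nrp1 then gave 1.11 (adjusted p = 0.0155) at 14 weeks.

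**Figure D4:**
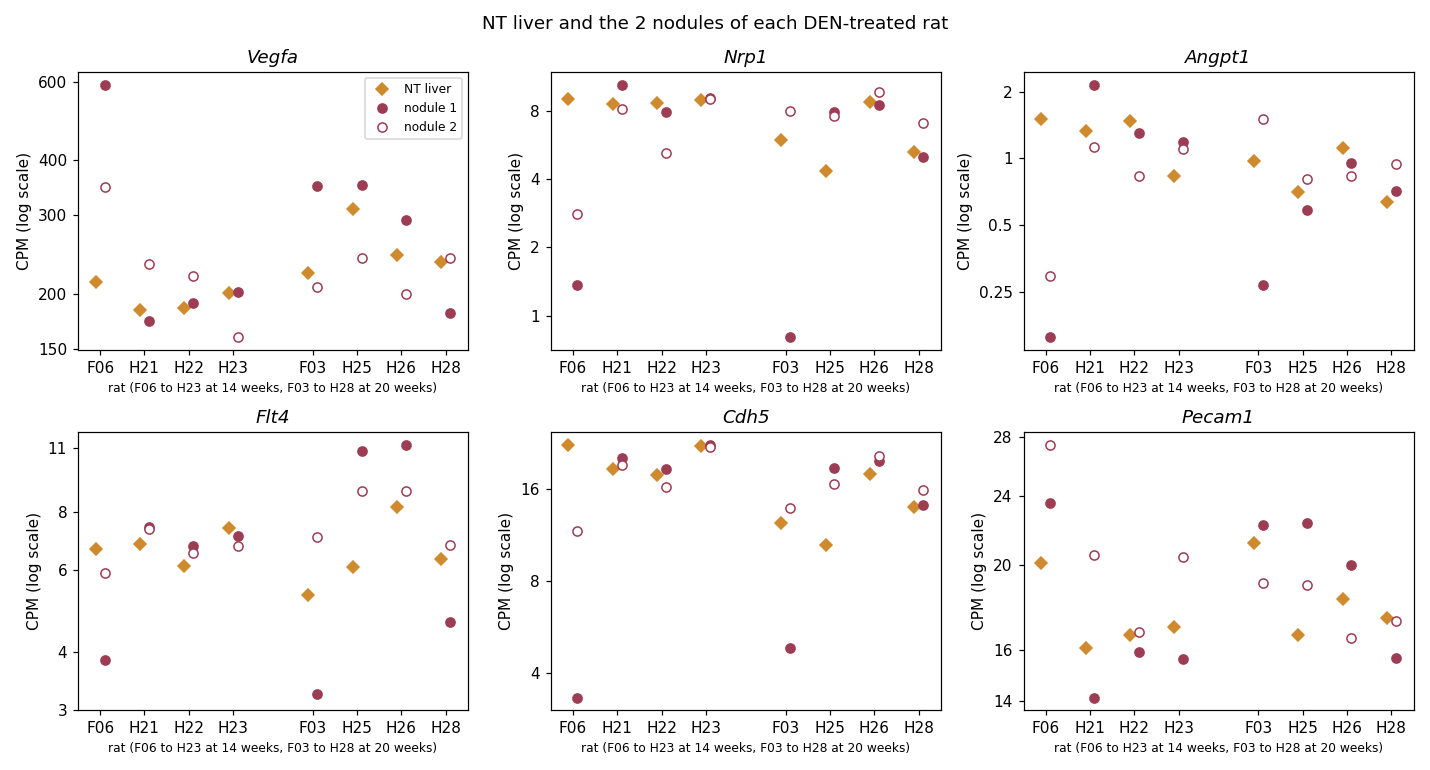
Levels in NT liver (diamonds) and in nodule 1 (filled) and nodule 2 (open) of each DEN-treated rat, in CPM on a log axis, 1 panel per gene, with the rats of 14 weeks on the left and of 20 weeks on the right. Both nodules of F06 and nodule 1 of F03 lie far below the other nodules in Nrp1 and Angpt1, and the F06 nodules are at 592 and 347 CPM in Vegfa.

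Most of the general endothelial markers were themselves higher in every comparison with no DEN liver, while Eng was called in none of the 5. Of 11 tested, 9, 10 and 9 rose in NT liver at 8, 14 and 20 weeks and 10 and 8 in nodules at 14 and 20 weeks, none fell, and their median log2 fold changes were 0.75, 1.02, 1.01, 1.31 and 1.25. Over all genes tested, 16.5%, 22.8%, 14.3%, 23.9% and 23.6% rose in the same order, shares that also stand beside the marker counts below. Cdh5 gave 0.57, 1.73, 1.14, 1.42 and 1.29, and Pecam1 0.55, 0.53, 0.58, 0.62 and 0.58. Sinusoidal markers such as Stab2 and Oit3 rose in 7, 7 and 6 of 9 in NT liver and in 7 and 6 of 9 in nodules. Among lymphatic markers, a list that holds Flt4 itself, 2, 3 and 3 of 5 rose in NT liver, and 3 of 6 and 3 of 5 rose in nodules. The lymphatic transcription factor gene Prox1, which hepatocytes also express, fell in NT liver at 20 weeks and in nodules at both times. Capillary and vein markers such as Cd34, Plvap and Vwf rose in 4 of 5, 4 of 5 and 3 of 4 in NT liver and in 4 of 5 and 3 of 4 in nodules.

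Markers of other cell types were counted in the same way, to be read beside the same shares of all genes that rose. The shares of all genes that fell were 5.21%, 9.85% and 3.82% in NT liver and 15.2% and 15.2% in nodules. Stellate and mural cell markers rose in 9 and 9 of 13 in NT liver at 8 and 14 weeks, in 6 of 13 at 20 weeks and in 7 of 14 in nodules at both times, and Pdgfrb fell in NT liver at 14 weeks, with summed levels of 246 to 333 CPM in no DEN liver, 317 to 584 CPM in NT liver and 354 to 593 CPM in nodules. Cholangiocyte markers rose in 2, 4 and 4 of 4 in NT liver and in 4 and 4 of 4 in nodules, with median log2 fold changes of 0.77, 3.03, 2.71, 3.40 and 3.67. Markers of proliferating cells rose in 4, 4 and 2 of 4 and in 4 and 4 of 4. Of 8 hepatocyte markers, 2, 4 and 0 fell in NT liver and 5 and 5 in nodules, and 1, the apolipoprotein gene Apoa1, rose in NT liver at 14 and 20 weeks and in nodules at both times. Of 8 macrophage markers 1, 1 and 2 rose in NT liver and 1 and 2 in nodules and none fell, shares of 12.5% or 25% beside the 16.5%, 22.8%, 14.3%, 23.9% and 23.6% of all genes that rose. Several markers were tested only because the treated rats reached the minimum of the filter on low counts, among them Cd34 at 14 and 20 weeks and, in at least 4 of the 5 comparisons, the cholangiocyte markers Cftr and Sox9. The part of these cell types in the levels of the 10 genes was not tested.

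The level of each receptor was therefore also taken relative to the summed endothelial markers, as a description without a test. Eng, called in none of the 5 comparisons, had the most counts of these markers and so weighed most on the sum. Its median was 2440 counts per library, with Tie1 next at 786.5. On this log2 scale, Flt4 differed from no DEN liver by -0.39, 0.51 and 0.76 in NT liver at 8, 14 and 20 weeks and by 0.32 and 0.87 in nodules at 14 and 20 weeks. Nrp1 differed by 0.12, 0.91, 0.54, 0.20 and 0.65 in the same order. The rats did not overlap for Flt4 at 20 weeks in either tissue and for Nrp1 in NT liver at 14 weeks. Kdr was at -0.12, -0.08, 0.23, -0.40 and -0.13, Flt1 at -0.14, 0.06, 0.35, 0.03 and 0.40, and Tek at -0.03, -0.25, 0.16, -0.56 and 0.08.

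Without F06 the nodules at 14 weeks were at 0.73 for Nrp1, 0.49 for Flt4, 0.16 for Flt1, -0.36 for Kdr and -0.46 for Tek, and without any other 1 rat Nrp1 there was at -0.033 to 0.25, and below 0 without H21 or without H23.

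Leaving out 1 other rat turned the sign of several small relative values. Kdr in NT liver at 14 weeks was at 0.00025 without H12, Flt1 in nodules at 14 weeks at -0.084 to -0.020 without H09, H10 or H23, Tek in NT liver at 8 weeks at 0.023 to 0.056 without F09, F10 or H08, Tek in nodules at 20 weeks at -0.042 and -0.028 without H15 and H16, and Nrp1 in NT liver at 8 weeks at -0.094 without H17. Kdr ranged from 0.11 to 0.34 in NT liver and from -0.25 to -0.026 in nodules at 20 weeks, and Tek in NT liver at 20 weeks from 0.035 to 0.29.

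Relative Tek levels at 14 weeks were lower in both tissues than in no DEN liver without overlap. With all rats, the mean relative level of Flt4 and of Nrp1 at 14 and 20 weeks was above that of no DEN liver in each tissue, and at 14 weeks that of Kdr and of Tek was below it. These relative values depend on the markers chosen. With the mean log2 level of the markers in place of their sum, Flt4 in NT liver at 14 weeks was at 0.18 and Flt1 at -0.27, and with Pecam1 and Cdh5 alone they were at 0.017 and -0.43.

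**Figure D5:**
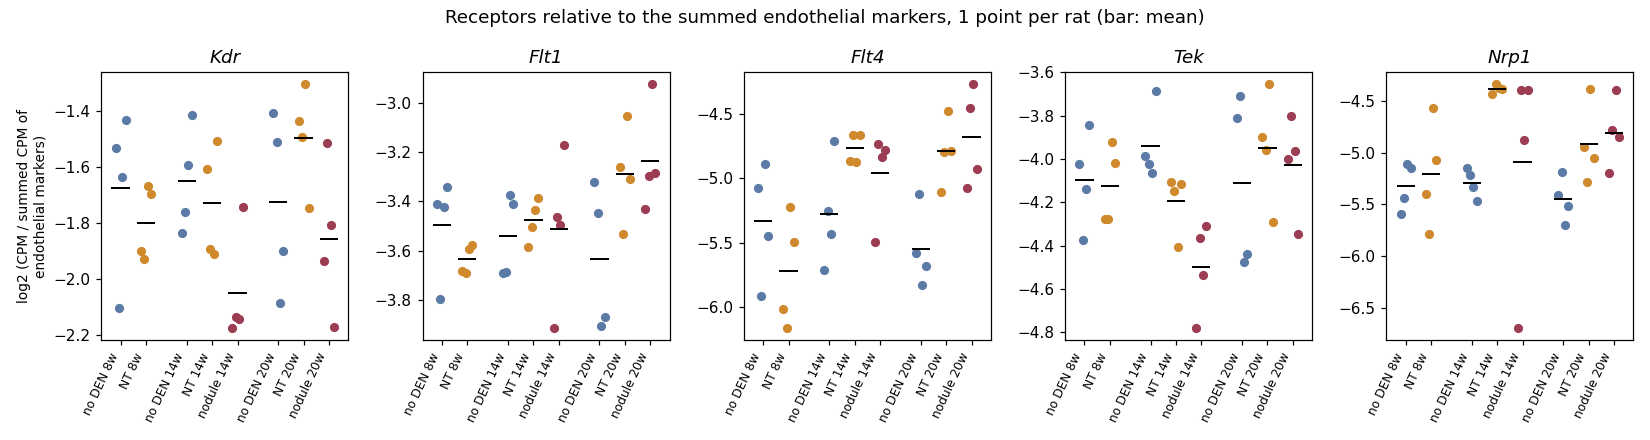
Log2 ratio of each receptor's CPM to the summed CPM of the general endothelial markers in the 8 groups, 1 point per rat with a bar at the mean, 1 panel per receptor. Flt4 lies above no DEN liver by 0.76 in NT tissue and 0.87 in nodules at 20 weeks without overlap, Nrp1 by 0.91 in NT tissue at 14 weeks, and Tek lies below by 0.25 in NT tissue and 0.56 in nodules at 14 weeks.

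Among other ligands and receptors of vessel growth, 38 of 43 genes listed were found. In NT liver 9 rose and 3 fell of 34 tested at 8 weeks, 18 rose and 3 fell of 35 at 14 weeks, and 18 rose and 1 fell of 34 at 20 weeks. In nodules 18 rose and 3 fell of 35 at 14 weeks, and 21 rose and 2 fell of 35 at 20 weeks. The median log2 fold changes were 0.41, 0.76, 0.63, 0.76 and 1.00, against medians of -0.01 to 0.02 over all genes. The share called in either direction was 35.3%, 60% and 55.9% in NT liver and 60% and 65.7% in nodules, beside 21.7%, 32.6%, 18.1%, 39.1% and 38.8% of all genes tested. Of the genes called, 2, 4, 5, 4 and 6 passed the filter on low counts only with the treated rats counted in, since fewer than 4 no DEN rats reached its minimum.

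The second neuropilin, Nrp2, a co-receptor for VEGF-C, rose from means of 1.96 and 1.53 CPM in no DEN liver at 14 and 20 weeks to 13.1 and 8.07 CPM in NT liver and 12.4 and 15.0 CPM in nodules. Its log2 fold changes were 2.75 ± 0.32 and 2.44 ± 0.34 in NT liver and 2.63 ± 0.65 and 3.27 ± 0.32 in nodules, beside 1.48, 1.11, 1.05 and 1.27 for Nrp1. At 8 weeks Nrp2 gave 0.52 ± 0.24 (adjusted p = 0.122). In the nodules of F06, Nrp2 was at 1.55 CPM, within the no DEN range, while the other 3 rats had 14.1 to 18.3 CPM. Tie1, which encodes the orphan partner of TEK and is also 1 of the endothelial markers, rose in all 5 comparisons, from 0.76 ± 0.12 in NT liver at 8 weeks to 1.33 ± 0.21 in nodules at 20 weeks. The gene of VEGF-D, listed under its older symbol Figf, had 0 to 7 counts in every no DEN rat and passed the filter only through the treated rats. Its levels are therefore given without a call, with means of 0.122 to 0.208 CPM in no DEN liver, 0.561 and 0.648 CPM in NT liver at 8 and 14 weeks and 0.857 and 0.582 CPM in nodules. In NT liver at 20 weeks, for which no level is given, Figf did not pass the rule.

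The apelin receptor gene Aplnr, a marker of sprouting endothelium, had 0 to 5 counts in every no DEN rat and also passed the filter only through the treated rats. Its levels are likewise given without a call, with a mean of 0.0596 CPM at 14 weeks and 0.0728 CPM at 20 weeks in no DEN liver, 1.63 and 0.864 CPM in NT liver and 2.50 and 2.42 CPM in nodules. Its ligand gene Apln, for which 2 of 4 no DEN rats at 14 weeks and 0 of 4 at 20 weeks reached the minimum, differed by 1.33, 2.01, 1.31 and 2.27 on the log2 scale in the same 4 comparisons. Esm1, an endothelial gene induced by VEGF-A signalling, differed by -1.44 ± 0.40 (adjusted p = 0.0178) in NT liver at 8 weeks. There 1 of 4 NT rats and 3 of 4 no DEN rats reached the minimum, so this value rests on few counts. At 20 weeks, where 1 of 4 no DEN rats reached it, Esm1 differed by 2.96 ± 0.54 in NT liver and 3.58 ± 0.49 in nodules. At 14 weeks Esm1 gave 0.63 (adjusted p = 0.182) and 0.80 (adjusted p = 0.133), with no DEN levels of 0.389 to 1.19 CPM at 14 weeks and 0.0943 to 0.484 CPM at 20 weeks.

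Of the semaphorins that share neuropilin receptors, Sema3f rose in all 5 comparisons, by 0.98 to 1.37. Sema3e, for which 0 of 4 no DEN rats reached the minimum at 14 and at 20 weeks, differed by 1.76 to 3.19 at these times. Thbs1, which encodes the angiogenesis inhibitor thrombospondin 1, rose in all 5, by 1.44, 2.37, 1.63, 2.44 and 2.63. The adrenomedullin co-receptor Ramp2 and the Notch receptor Notch4 also rose in all 5. Angptl4, which encodes a secreted inhibitor of lipoprotein lipase, fell in NT liver at 8 and 14 weeks and in nodules at both times, with log2 fold changes of -0.53, -1.45, -1.75 and -1.26. The Notch ligand gene Jag1 rose in the 4 comparisons at 14 and 20 weeks, by 0.91 to 1.27.

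Hypoxia is the known inducer of Vegfa, and genes of oxygen sensing and hypoxia targets did not move one way. Of 21 tested, 5, 6 and 5 rose and 3, 6 and 2 fell in NT liver at 8, 14 and 20 weeks, and 5 and 6 rose and 7 and 5 fell in nodules at 14 and 20 weeks. The share called was 38.1%, 57.1% and 33.3% in NT liver and 57.1% and 52.4% in nodules, above the shares of all genes given for the ligands and receptors. Of the genes called, 3, 3, 2, 3 and 3 were tested only because treated rats reached the filter's minimum, Vldlr and Pfkfb3 among them in all 5. The median log2 fold changes lay between -0.04 and 0.15. Among those that rose in all 5 comparisons were Ndrg1, a stress-response gene, from 1.00 in NT liver at 8 weeks to 4.21 in nodules at 20 weeks and Egln3, an oxygen-sensing hydroxylase, from 0.59 to 3.07. Vldlr, a lipoprotein receptor gene that is given without a call, differed by 1.62 to 2.83.

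Pfkfb3, which encodes an activator of glycolysis and is also given without a call, differed by 1.18 to 2.52. Ldha, which encodes a subunit of lactate dehydrogenase, and Pdk1, which encodes a kinase that inhibits pyruvate dehydrogenase, are also induced by hypoxia and fell in all 5, Ldha by 0.58 to 1.45 and Pdk1 by 0.65 to 1.42. The hypoxia-inducible factor gene Hif1a was not called, with differences between -0.49 and -0.20, and neither was Epas1. The glucose transporter gene Slc2a1 was not called, with differences of 0.25 to 0.50.

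Of 28 genes of signalling below the VEGF and TEK receptors, 6, 10 and 6 rose and 1, 1 and 2 fell in NT liver at 8, 14 and 20 weeks, and 9 and 8 rose and 2 and 2 fell in nodules at 14 and 20 weeks. The medians were 0.01 to 0.15. The share called was 25%, 39.3% and 28.6% in NT liver, beside 21.7%, 32.6% and 18.1% of all genes, and 39.3% and 35.7% in nodules, beside 39.1% and 38.8%. It was thus near that of all genes at 8 weeks and in nodules, and 1, 2, 1, 1 and 1 of the genes called were tested only through the treated rats. Nos3, the endothelial nitric oxide synthase gene, rose by 1.02 to 1.59 in all 5 comparisons, and Shc2, an adaptor gene that fewer than 4 no DEN rats held at the minimum at 8 and 20 weeks, differed by 1.01 to 2.15. Pik3r1, which encodes the regulatory subunit of phosphoinositide 3-kinase, fell in all 5, by 0.77 to 1.47. Of the 28 genes, 14 were called in none of the 5 comparisons.

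The genes whose log2 levels followed each member called in at least 1 comparison most closely over the 32 values of the 24 rats, among 11595 genes, are given as a description. Vegfa, Vegfc, Kdr and Tek, called in none, were not searched. The values share untreated and treated groups, rats and the make-up of the tissue. For Nrp1 these were Arhgap31 (Pearson r = 0.951), Cd93 (0.940) and Cdh5 (0.939). For Flt1 they were Plxnd1 (0.930), Oit3 (0.927) and Stab2 (0.919), and for Flt4 Myo7a (0.911), Oit3 (0.893) and Stab2 (0.890).

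Oit3, Stab2, Cdh5, Cd93 and Plxnd1 are genes known from endothelium. For Angpt2 the closest were Myo7a (0.832), Flt4 (0.804) and Plxdc2 (0.789), for Angpt1 Mvb12b (0.805), Pola1 (0.787) and Cdc42se2 (0.778), and for Vegfb Dpt (0.885), Neu1 (0.881) and Ocel1 (0.871).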

How the data were processed

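Whole-tissue libraries (Illumina TruSeq stranded mRNA, paired-end) were deposited as counts. Per the methods and the labels, the authors aligned reads with STAR 2.7.1a to rn6 and counted read pairs in exons of the matching strand with HTSeq, without trimming. Pairs that met more than 1 gene were left out, so near-identical genes are undercounted. Groups came from the labels' treatment, collection week and tumor status.

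Genes were filtered with filterByExpr, scaled by TMM and tested with the edgeR 4.0.16 quasi-likelihood test (R 4.3.3) on the 2 groups compared, with 4 rats each and the 2 nodules of a rat added. Adjusted p-values are Benjamini-Hochberg over all genes tested. Differences between times were tested as interactions at an adjusted p of at most 0.05. DESeq2 1.42.0 was 1 of the alternatives. The scripts were tested on simulated data. Mean levels carry the SD and fold changes the SE. The members, the gene lists and the tests were chosen with earlier results of these data known. All members were tested in every comparison, and those without a value of their own are covered by a count or range. Named from the other lists were genes called in at least 3 of the 5 comparisons with no DEN, of which some are given only in counts. Hif1a, Epas1 and Slc2a1, named for their role, Pdgfrb, named beside a count of 1, and Robo4, named as a marker at 0, were chosen after their values were seen and are exceptions.

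Nodules and NT tissue came from the same rats by the labels. Their deviations from the group means correlated at 0.368 to 0.543 in the 8 rats, and 7 of 8 matched their own rat best. No pair of libraries of 1 group agreed within sampling noise (chi-square per degree of freedom at least 12.9). Promoters came from RefSeq, build GRCr8, which differs from the build of the counts.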

Additional observations from a re-analysis of the deposited data

Results flagged for a closer look

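The groups of samples of each gene were examined for a highest or lowest value far from the others. Of 80 such groups, 5 stood out, where chance gives about 1 in 20. The number below is the gap to the nearest value divided by the whole range. Among the 8 nodules of 14 weeks, nodule 1 of F06 was highest in Vegfa (592 CPM, 0.566) and lowest in Flt4 (3.85 CPM, 0.571). Angpt1 was high in NT rat H17 at 8 weeks (1.28 CPM, 0.831) and in no DEN rat H07 at 8 weeks (0.850 CPM, 0.861), both from few counts. Nrp1 in no DEN rat H10 at 14 weeks was lowest (3.00 CPM, 0.848), in a group whose other 3 rats lay within 3.12 to 3.15 CPM.

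Of 30 tests of a difference between times, 1 passed: the rise of Nrp1 in NT liver was larger at 14 than at 8 weeks by 0.88 on the log2 scale. That comparison was passed by 8.96% of all genes. The call was lost without the F rats and without any 1 of several single rats, as given above.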

How the results depend on the processing

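Counts below are members called. With a stricter rule (a log2 fold change of 1 or more and an adjusted p of 0.01 or less), NT liver had 0, 2 and 1 at 8, 14 and 20 weeks and nodules 0 and 3 at 14 and 20 weeks (7.91%, 15.2%, 5.22%, 18.7% and 17.4% of all genes). NT liver at 8 weeks had 1 without the filter on low counts (18.1% of all genes) and 0 with all 8 groups in 1 fit (20.7%). NT liver at 20 weeks had 5 with DESeq2 (12.9%) and 6 with all 8 groups (19.6%). With nodule 1 of each rat alone, nodules had 2 at 14 and 2 at 20 weeks (35.6% and 37.4%). The interaction of NT liver between 8 and 14 weeks had 0 without the F rats (9.53%). Leaving out 1 rat at a time gave 0 to 3, 5 to 7 and 3 to 6 in NT liver, 1 to 5 and 4 to 7 in nodules, and 0 to 2 for the interaction, beside 17.5% to 26.8%, 30.7% to 34.7% and 12.7% to 19.2% of all genes in NT liver, 34.8% to 41.5% and 34.5% to 42.0% in nodules and 4.73% to 16.5% for the interaction. NT liver at 8 weeks had 0 without H05, H07 or H17 and 1 without F09, H06 or H18, and NT liver at 20 weeks had 6 without H13. Nodules at 14 weeks had 1 without H10, H11 or H21 and 2 without H09, H12, H22 or H23. Leaving out nodule 1 of F03 and F06 was chosen after seeing the data. The replicate block, run for nodules against NT liver, called none of the 10 at either time, as without it, and moved the count over all genes from 0 to 1693 at 20 weeks.

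The Angpt2 to Angpt1 ratio without the F rats differed by -0.38 (nodules against no DEN liver) and -0.084 (nodules against NT liver) at 14 weeks, and by -0.13 with nodule 2 alone against NT liver at 20 weeks. Leaving out 1 rat gave -0.63 to -0.34, -0.53 to -0.15 and 0.24 to 0.74 in NT liver, -0.38 to 0.35 and 0.28 to 0.78 in nodules against no DEN liver, and -0.084 to 0.75 and -0.15 to 0.20 against NT liver.

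With the mean log2 level of the endothelial markers or Pecam1 and Cdh5 alone as reference, NT liver at 14 weeks was at -0.41 and -0.57 for Kdr, -0.27 and -0.43 for Flt1, 0.18 and 0.017 for Flt4, -0.59 and -0.75 for Tek and 0.58 and 0.42 for Nrp1. Flt1 in NT liver at 20 weeks was at 0.092 and 0.095. Nodules at 14 weeks were at -0.74 and -0.70 for Kdr, -0.32 and -0.28 for Flt1 and -0.90 and -0.86 for Tek. With the mean alone, nodules at 20 weeks were at -0.46 for Kdr, 0.074 for Flt1 and 0.32 for Nrp1. The cause of these shifts was not tested. Leaving out 1 rat at a time, also chosen after seeing the data, gave -0.033 to 0.73 for Nrp1 in nodules at 14 weeks and turned the sign of small values. With 4 rats a group such a shift can hardly exceed the spread between rats, so it shows no stability. Of the alternatives for single members, 1651 kept their side of the threshold, 21 gained and 46 lost it, 112 changed sign without a call on either side, and none reversed a call. The 6 to 180 counts of the angiopoietins limit their precision most.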
